A study of Mus musculus with 4 samples.

Results

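The genes described here are the 7 that join meiotic telomeres to the nuclear envelope: Terb1, Terb2, Majin, Ccdc155 (which encodes KASH5), Sun1, Sun2 and Spdya. They were chosen by symbol in the deposited table, where each has 1 of the 31600 features. The rule used no measured value, but earlier results of these data were known when the genes were chosen. The 4 libraries came from mouse cells labelled as spermatogonial stem cells, from which the testis renews its germline. The 2 control libraries carry the genotype label WT. The 2 libraries of the other group carry the label Differentiation in the same field. None of the sources used here gives an age, strain, agent or time, or says whether the 2 libraries of a group are separate cultures. All p-values therefore hold only the spread between these libraries, which may be technical.

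In meiotic prophase the chromosome ends are tethered to the inner nuclear membrane, gather and are moved along the envelope, which helps homologous chromosomes find each other and pair. TERB1 binds the shelterin protein TRF1 at the telomere, TERB2 bridges TERB1 to MAJIN, and MAJIN sits in the inner nuclear membrane. SUN1, with SUN2 as a related protein, spans that membrane and meets KASH5 of the outer membrane, which recruits cytoplasmic dynein as the motor. Speedy A, the product of Spdya, activates the kinase CDK2 without a cyclin and is needed for the attachment.

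Transcripts of 6 of the 7 genes were higher in the differentiation libraries, and Sun2 was the exception. Ccdc155 and Spdya had the largest increases, with group means 5.65 and 5.88 times those of control. Terb1 followed at 3.39 times, Majin at 2.17, Terb2 at 1.68 and Sun1 at 1.55. In each of these 6 genes both differentiation libraries exceeded both control libraries, as they did in 40.9% of the features tested. Values are FPKM, fragment counts scaled to exon length and sequencing depth, so levels of different genes can be set side by side roughly. The length merges the exons of all transcripts of a gene. Fold changes on the log2 scale are of log2(FPKM + 1), which understates the change of low genes, and a gene was called at a limma adjusted p under 0.05. At that threshold 29.6% of the 23138 features tested were called higher and 27.0% lower, so a single call is common in this comparison. All 7 genes passed the filter of a mean of at least 0.5 FPKM, and their median log2 fold change was 1.00, against 0.01 over all features tested.

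The telomere side of the complex is made of Terb1, Terb2 and Majin. Terb1 (ENSMUSG00000052616, GRCm38 chromosome 8, 104446719 to 104509910, minus strand) was at 3.34 and 2.65 FPKM in the control libraries and at 9.80 and 10.5 FPKM in the differentiation libraries. It was the lowest of the 7 in control, and its differentiation libraries lay far above both control libraries. The group means were 3.00 ± 0.492 and 10.2 ± 0.498 FPKM (SD, n = 2 each), a rise of 1.49 on the log2 scale (SE 0.11, limma adjusted p = 0.000998). Recovered from the FPKM steps, the 4 values correspond to 244, 205, 653 and 802 fragments.

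Terb2 (ENSMUSG00000027229, chromosome 2, 122186272 to 122206397, plus strand) was at 5.10 and 6.04 FPKM in control and at 9.74 and 8.94 FPKM in differentiation. The groups did not overlap, but the change was small beside that of its partner Terb1. The group means were 5.57 ± 0.667 and 9.34 ± 0.564 FPKM (SD, n = 2 each), a rise of 0.66 on the log2 scale (SE 0.09, limma adjusted p = 0.00623). This call was lost without differentiation replicate 1, with a log2 fold change of 0.60 and a limma adjusted p of 0.0543. Its 4 values correspond to 210, 264, 366 and 385 fragments.

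Majin (ENSMUSG00000024786, chromosome 19, 6184388 to 6224225, plus strand) was at 5.39 and 6.29 FPKM in control and at 11.5 and 13.8 FPKM in differentiation. The differentiation libraries differed from each other more than those of any other member, and both exceeded both control libraries. The group means were 5.84 ± 0.636 and 12.7 ± 1.61 FPKM (SD, n = 2 each), a rise of 1.00 on the log2 scale (SE 0.11, limma adjusted p = 0.00338). Its 4 values correspond to 172, 213, 336 and 461 fragments, and the counts in replicate 1 of each group were the smallest of the 6 genes with whole fragments.

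Ccdc155, Sun1 and Sun2 form the bridge through the nuclear envelope. Ccdc155 (ENSMUSG00000038292, chromosome 7, 45183624 to 45204892, minus strand) was at 5.41 and 5.88 FPKM in control and at 32.7 and 31.0 FPKM in differentiation. In control it stood among Terb2 and Majin, and in differentiation it was the highest of the 7. The group means were 5.64 ± 0.330 and 31.9 ± 1.16 FPKM (SD, n = 2 each), a rise of 2.31 on the log2 scale (SE 0.06, limma adjusted p = 0.000116).

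Sun1 (ENSMUSG00000036817, chromosome 5, 139200637 to 139249840, plus strand) was at 19.2 and 17.9 FPKM in control and at 29.2 and 28.2 FPKM in differentiation. It was by far the highest member in control. Sun1 is also used by somatic cells and dividing germ cells, where SUN proteins link the nucleus to the cytoskeleton. The group means were 18.5 ± 0.870 and 28.7 ± 0.698 FPKM (SD, n = 2 each), a rise of 0.60 on the log2 scale (SE 0.05, limma adjusted p = 0.00112), on 2811 to 4363 fragments per library.

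Sun2 (ENSMUSG00000042524, chromosome 15, 79724070 to 79742536, minus strand) was at 7.89 and 7.47 FPKM in control and at 6.98 and 7.34 FPKM in differentiation. The differentiation libraries lay just below the control libraries. That order held in 39.1% of the features tested. The means were 7.68 ± 0.294 and 7.16 ± 0.260 FPKM (SD, n = 2 each), and the log2 fold change of -0.09 (SE 0.06) did not pass (limma adjusted p = 0.242). After quantile normalization the log2 fold change was -0.20 and passed (limma adjusted p = 0.0390).

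Spdya (ENSMUSG00000052525, chromosome 17, 71552061 to 71589533, plus strand) was at 4.51 and 5.05 FPKM in control and at 28.4 and 27.8 FPKM in differentiation. Its libraries agreed closely within each group and the groups lay far apart. The group means were 4.78 ± 0.377 and 28.1 ± 0.388 FPKM (SD, n = 2 each), a rise of 2.33 on the log2 scale (SE 0.06, limma adjusted p = 0.000127). Of its 2198 exonic bases, GENCODE M21 shares 402 with Trmt61b, which lies on the opposite strand, and 250 with the pseudogene Mettl4-ps1 on the same strand. Trmt61b was at 2.54 and 3.08 FPKM in control and at 11.1 and 10.9 FPKM in differentiation. No source used here says whether strand was used in counting, so reads from the shared bases cannot be told apart between Spdya and Trmt61b. Mettl4-ps1 was at 0.575 and 0.678 FPKM in control and at 3.07 and 3.05 FPKM in differentiation, and counting by strand would not separate its reads from those of Spdya. Sun1 and Sun2 also have an antisense gene each, which covers 3.98% and 2.71% of their exonic bases.

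**Figure D1:**
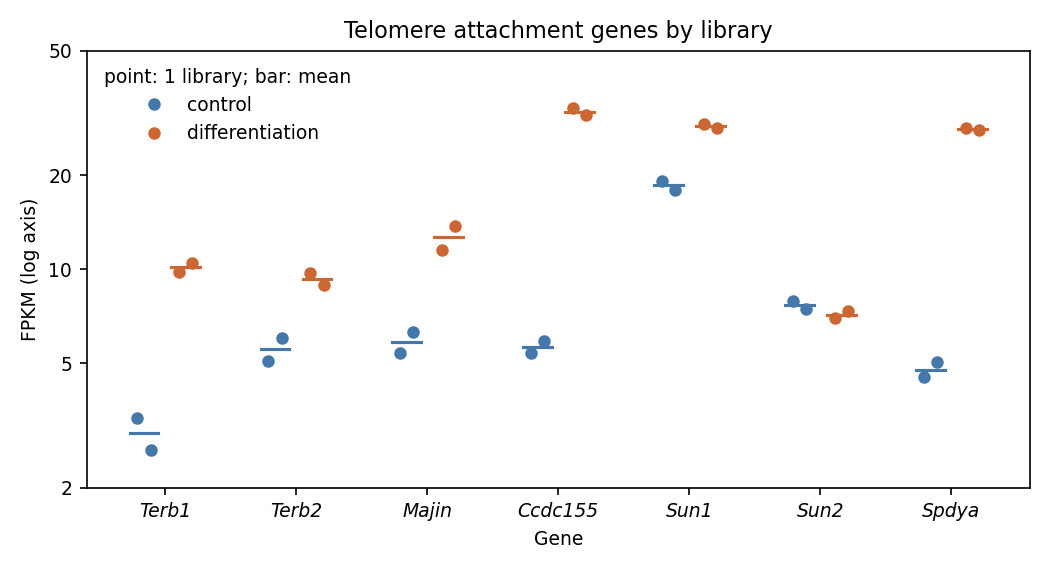
FPKM (log axis) of the 7 genes in each library, with control and differentiation side by side, where a point is 1 library and a bar the group mean. The differentiation points lie above the control points for 6 genes, most widely for Ccdc155 and Spdya, and Sun2 stays between 6.98 and 7.89 FPKM in all 4 libraries.

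The order of the 7 genes by FPKM differed between the groups. In control, Sun1 led, followed by Sun2, Majin, Ccdc155, Terb2, Spdya and Terb1, and the libraries of Majin and Ccdc155 and those of Ccdc155 and Terb2 overlapped. The highest mean was 6.19 times the lowest. In differentiation, Ccdc155 led, followed by Sun1, Spdya, Majin, Terb1, Terb2 and Sun2, and only the libraries of Sun1 and Spdya overlapped among neighbours. There the highest mean was 4.45 times the lowest. Summed over the 7 genes, the level was 50.8 and 51.3 FPKM in the control libraries and 128.3 and 127.6 FPKM in the differentiation libraries.

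Among all features tested, the log2 fold changes of Spdya and Ccdc155 exceeded those of 98.0% and 97.9% of features, and that of Terb1 exceeded 94.9%. Majin stood at 90.0%, Terb2 at 83.0% and Sun1 at 81.3%, while Sun2 was near the middle at 43.1%. A call with a log2 fold change of at least 2 was made for Ccdc155 and Spdya, and 2.79% of all features tested passed that mark in that direction. In the authors' deposited table the same 6 genes were higher at an adjusted p under 0.05, as were 22.0% of its features, with log2 fold changes from 0.63 (Sun1) to 2.55 (Spdya). That table gave Sun2 a log2 fold change of -0.10 and an adjusted p of 0.427.

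**Figure D2:**
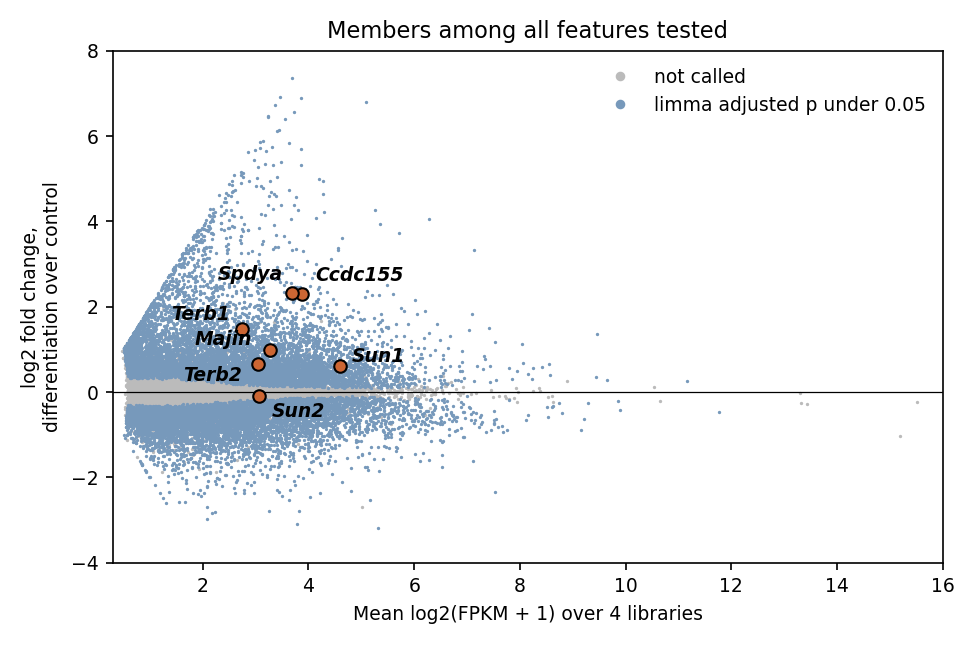
Each dot is a feature, with the mean log2(FPKM + 1) over 4 libraries on the horizontal axis and the log2 fold change of differentiation over control on the vertical axis. Blue dots passed a limma adjusted p under 0.05, and the 7 genes are marked, with Spdya and Ccdc155 at 2.33 and 2.31 and Sun2 at -0.09.

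Ratios within a library show how unevenly partner genes differed, and the pairs were chosen after their values were seen. Ccdc155 was at 0.282 and 0.328 times Sun1 in the control libraries and at 1.12 and 1.10 times Sun1 in the differentiation libraries. The ratio of the KASH gene to its SUN partner thus rose. The exon length merges 20 transcripts over 7596 bases for Sun1 and 2 over 2365 bases for Ccdc155. Which gene had more transcripts in differentiation therefore cannot be read from ratios this near to 1. Sun1 was at 2.43 and 2.40 times its paralog Sun2 in control and at 4.19 and 3.84 times in differentiation.

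Terb1 was at 0.655 and 0.438 times Terb2 in control and at 1.01 and 1.18 times in differentiation. Majin was at 1.06 and 1.04 times Terb2 in control and at 1.18 and 1.54 times in differentiation, a shift no larger than the gap between the differentiation libraries. Spdya was at 0.386 and 0.452 times Cdk2, the kinase it activates, in control and at 1.69 and 1.56 times in differentiation. Spdya and Ccdc155 kept nearly the same ratio to each other, 0.834 and 0.859 in control and 0.868 and 0.896 in differentiation. With 2 libraries per group a two-sided exact permutation test of such a ratio cannot give a p below 0.333, so the ratios are given as values.

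**Figure D3:**
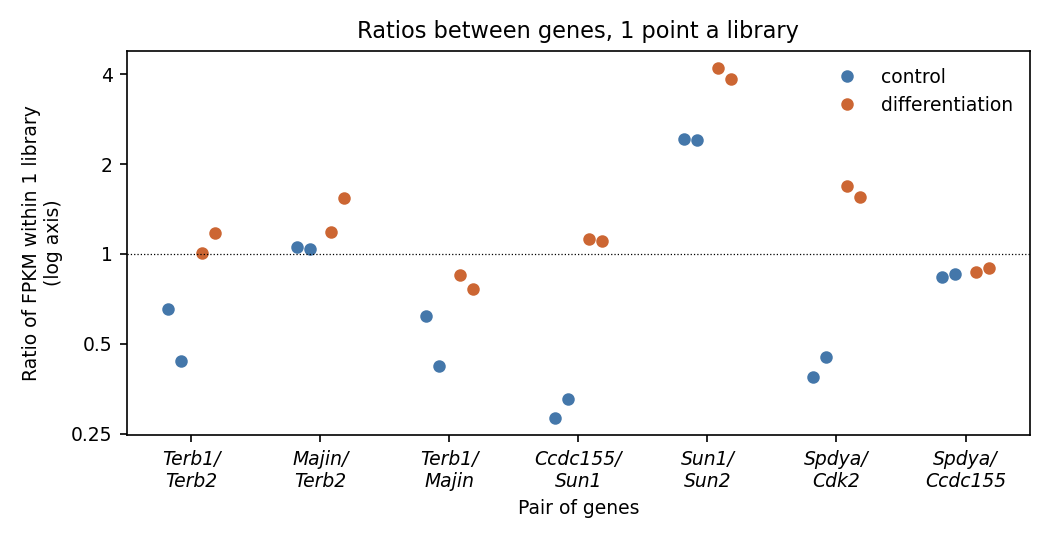
Ratio of FPKM between 2 genes within each library (log axis), where a point is 1 library and the dotted line marks equal FPKM. Ccdc155 over Sun1, Terb1 over Terb2 and Spdya over Cdk2 cross from below 1 to above 1, while Spdya over Ccdc155 stays between 0.834 and 0.896. Which of Ccdc155 and Sun1 had more transcripts in differentiation cannot be read from ratios this near to 1.

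The promoters of Ccdc155, Spdya and Terb1, which rose most, and of Sun2, which was not called, are printed to show what lies before their starts. The sequences are the 250 bases before the RefSeq start in build GRCm38.p6, written 5′ to 3′ on the strand of the gene, with matches to the motifs searched in capitals.
Ccdc155, chr7:45204893-45205142, minus strand: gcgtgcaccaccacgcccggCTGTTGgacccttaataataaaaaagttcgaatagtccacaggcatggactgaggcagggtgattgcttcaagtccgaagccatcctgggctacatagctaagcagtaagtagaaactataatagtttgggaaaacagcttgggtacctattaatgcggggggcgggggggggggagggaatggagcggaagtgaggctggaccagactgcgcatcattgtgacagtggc
Spdya, chr17:71551811-71552060, plus strand: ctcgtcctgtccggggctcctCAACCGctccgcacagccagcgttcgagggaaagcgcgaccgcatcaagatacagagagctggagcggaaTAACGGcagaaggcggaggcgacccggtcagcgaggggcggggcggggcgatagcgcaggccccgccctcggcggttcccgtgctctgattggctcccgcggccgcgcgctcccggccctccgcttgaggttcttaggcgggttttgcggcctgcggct
Terb1, chr8:104509888-104510137, minus strand: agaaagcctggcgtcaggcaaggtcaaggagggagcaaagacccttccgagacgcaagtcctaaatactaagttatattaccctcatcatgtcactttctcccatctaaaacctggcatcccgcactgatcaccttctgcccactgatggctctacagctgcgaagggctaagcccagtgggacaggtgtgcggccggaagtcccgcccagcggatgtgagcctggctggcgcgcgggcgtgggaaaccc
Sun2, chr15:79742537-79742786, minus strand: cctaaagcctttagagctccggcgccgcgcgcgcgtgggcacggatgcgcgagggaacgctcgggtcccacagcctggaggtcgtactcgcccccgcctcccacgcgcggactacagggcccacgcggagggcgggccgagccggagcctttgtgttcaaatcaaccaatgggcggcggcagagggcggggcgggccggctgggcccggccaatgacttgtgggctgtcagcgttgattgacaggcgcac
RefSeq gave a window for 5 of the 7 genes, which are these and Sun1. Searched on both strands were the MYB core TAACNG or CAACNG, CNCCTCAG as bound by STRA8 and MEIOSIN, the E2F site TTCCCGC, the RFX motif GTTGCC, the NRF1 site by name and the E-box CACGTG. The only matches were to the MYB core. Spdya has it at 229 to 224 and 159 to 154 bases before the start, and Ccdc155 at 230 to 225. The window of the second Sun1 start holds 1 match, and those of Terb1, Sun2 and the first Sun1 start hold none. Of the 32851 windows of this length, 43.1% hold the MYB core, so a match is common. A match is a string of letters, not a measured site.

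Other genes of the pathway were read from lists, each described by counts and its median. The chromosome axis, cohesin and synaptonemal complex list holds proteins of the chromosome cores that end at the attached telomeres. Of its 14 tested genes 12 rose and 1 fell, beside 29.6% higher and 27.0% lower over all features. Their median log2 fold change was 0.90. Hormad1 and Hormad2, of the unsynapsed axis, rose by 2.15 and 1.19 on the log2 scale. The axis genes Sycp3 and Sycp2 rose by 1.60 and 1.91. Rec8, a meiotic cohesin subunit, fell from 16.2 ± 0.0895 to 9.45 ± 0.0268 FPKM. Rad21l, the other meiotic kleisin, was at 12.6 and 12.4 FPKM in control and at 11.3 and 13.4 FPKM in differentiation.

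In the shelterin and telomere maintenance list, 9 of 19 tested genes fell and 2 rose, beside the 27.0% lower and 29.6% higher over all features, with a median log2 fold change of -0.33. The telomerase RNA Terc fell from 65.0 ± 6.31 to 35.2 ± 0.229 FPKM, and Nhp2 and Dkc1, proteins of its ribonucleoprotein, fell by 0.88 and 1.00 (log2 scale). Atrx, a chromatin remodeller, fell by 0.71. Those that rose were Nop10, of the same ribonucleoprotein, and Terf2, which protects the telomere loop, by 0.41 and 0.33. The Terf2 call was lost without control replicate 1 or differentiation replicate 2 (limma adjusted p = 0.0611 and 0.0625). Terf1, which encodes the TRF1 that TERB1 binds, was at 7.72 and 7.93 FPKM in control and at 6.73 and 8.14 FPKM in differentiation, with overlapping groups.

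In the list of other SUN- and KASH-domain genes 2 of 8 rose and 1 fell, with a median of 0.04, so few members were called and the share that rose was near the 29.6% over all features. Sun3 and Sun5, SUN genes known from spermatids, rose from 0.233 ± 0.118 to 3.23 ± 0.396 FPKM and from 0.959 ± 0.355 to 2.42 ± 0.189 FPKM (SD over 2 libraries). Sun3 had 8 and 4 fragments in the control libraries and passed the filter only through the differentiation libraries. Syne3, which encodes a nesprin, fell by 0.38 on the log2 scale. The Sun5 call was lost without either differentiation replicate (limma adjusted p = 0.0759 and 0.0959). The Syne3 call was lost without any 1 of the 4 libraries (limma adjusted p from 0.0670 to 0.112) and with a replicate block (limma adjusted p = 0.0534).

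In the list of the nuclear lamina and inner nuclear membrane 8 of 12 tested genes fell and 2 rose, with a median of -0.35. Over all features 27.0% were called lower and 29.6% higher. The lamin genes Lmnb1 and Lmna fell by 0.54 and 0.64 (log2 scale), Lmnb1 from 35.0 and 34.4 to 24.1 and 23.0 FPKM. The LEM-domain genes Tmpo and Emd fell by 0.47 and 0.78. Lemd2 and Lemd3, of the same domain family, rose by 0.52 and 0.15. The Lemd3 call was lost without any 1 of the 4 libraries (limma adjusted p from 0.0606 to 0.132), after median centring and quantile normalization (0.179 and 0.862), without the intensity trend (0.102) and with a replicate block (0.0508).

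Cytoplasmic dynein and its cofactor dynactin, the motor that KASH5 recruits, had calls in either direction. Of 23 tested genes 13 rose, beside 29.6% over all features, and 7 fell, a share near the 27.0% of all features, with a median of 0.27. The light chain gene Dynlrb2 was at 0.0924 and 0.0871 FPKM in control, 1 fragment in each library, and rose to 4.76 and 4.86 FPKM in differentiation. It passed the filter only through the differentiation libraries. Dynlrb1, its paralog, was at 10.1 and 9.26 FPKM in control and fell by 0.38 on the log2 scale. Actr1a, the actin-related core of dynactin, rose from 20.9 ± 1.67 to 46.8 ± 1.05 FPKM, while its paralog Actr1b fell from 16.8 ± 0.740 to 10.7 ± 0.880 FPKM (SD over 2 libraries). The Dynlrb1 call was lost without either differentiation replicate (limma adjusted p = 0.0547 and 0.0547). The intermediate chain gene Dync1i2 and the dynactin gene Dctn2 rose by 0.86 and 0.94 on the log2 scale. Dync1li1, Dctn1 and Ndel1 fell by 0.32, 0.35 and 0.27. The list also counts the dynein regulator genes Ndel1, Nde1 and Pafah1b1, which are not subunits of dynein or dynactin. Nde1 fell by 0.27 and Pafah1b1 rose by 0.42.

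Of the 11 genes of the CDK2 list, 7 were called higher and 4 lower, against 56.6% of all features called in either direction, with a median of 0.44. The cyclin gene Ccne1 was called only narrowly (log2 fold change 0.23, limma adjusted p = 0.0455). Its call was lost under limma-voom (adjusted p = 0.0717), in 4 other alternatives that kept all 4 libraries (limma adjusted p from 0.0564 to 0.141) and without any 1 library (0.110 to 0.158). Without 1 library, 5 or 6 of the list were called higher and 3 or 4 lower. Cdk2 rose from 11.4 ± 0.388 to 17.3 ± 0.779 FPKM and the cyclin gene Ccne2 from 23.6 ± 1.32 to 32.2 ± 0.229 FPKM (SD over 2 libraries). Spdye4b and Spdye4a, further genes of the Speedy family, were under 0.2 FPKM in both control libraries and rose to 4.56 ± 0.0582 and 1.13 ± 0.0337 FPKM, and reads could be divided between such close copies. Spdye4b had 2 and 6 fragments in the control libraries, and Spdye4a had 2 and 4. Both genes, and Ccna1 at 0.391 FPKM in control (group mean), passed the filter only through the differentiation libraries. The mitotic cyclin gene Ccna2 fell from 17.5 ± 0.352 to 8.81 ± 0.0744 FPKM. The inhibitor genes Cdkn1b, Cdkn1a and Cdkn1c fell by 0.96, 0.47 and 0.56 (log2 scale), and the Cdkn1c call was lost without control replicate 2 or differentiation replicate 2 (limma adjusted p = 0.0677 and 0.0719).

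**Figure D4:**
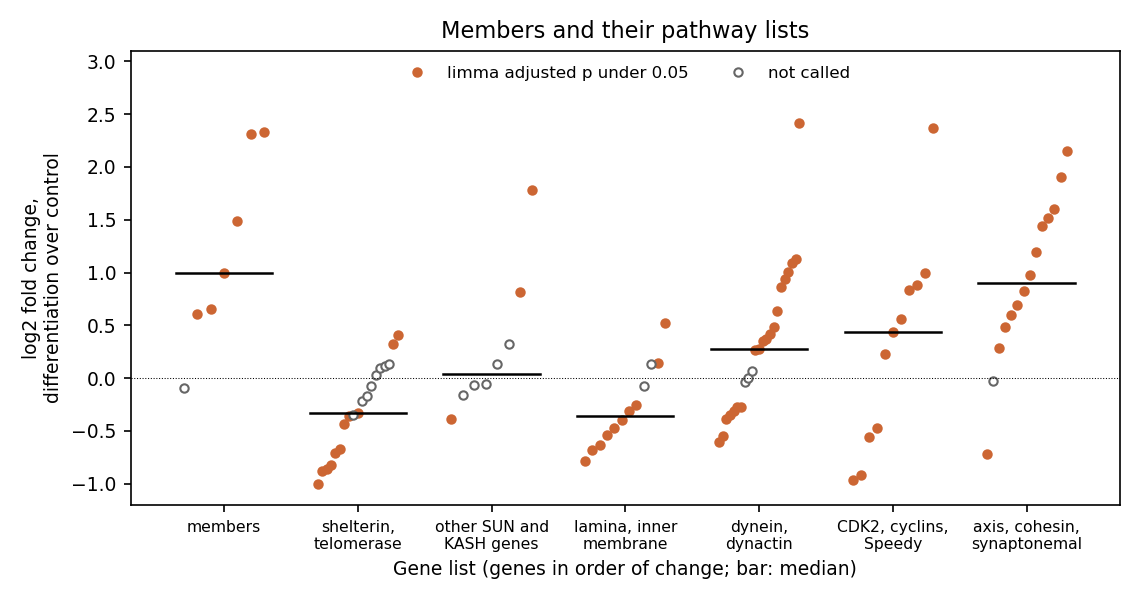
The log2 fold change of differentiation over control for the 7 genes and each pathway list, where a filled point passed a limma adjusted p under 0.05, an open point did not, and a bar is the median. The medians run from 1.00 for the 7 genes and 0.90 for the axis list down to -0.33 and -0.35 for the telomere and lamina lists.

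For each of the 7 genes, the most alike protein-coding genes were those with the smallest Euclidean distance over log2(FPKM + 1) in the 4 libraries, among 14397 compared. Nearest to Spdya was Eno3 (4.67, 4.93, 27.7 and 27.5 FPKM, distance 0.061), and next C1qtnf4. Nearest to Ccdc155 was Fbxo3 (5.71, 6.02, 31.7 and 31.4 FPKM, distance 0.085), and next Ptpdc1. Terb1 was nearest to Sesn3 and Ago4, Terb2 to Fam118b, and Majin to Kif27 and Tmem242. Sun1 was nearest to Riok3 and Cry1, and Sun2 to Zfp868 and Lin28b. A distance over 4 libraries in 2 groups reflects little more than a similar level and a similar change.

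Markers of several cell types were detected, and the most abundant of each list are named, with some others. The counts stand beside 29.6% called higher and 27.0% called lower over all features tested. Of the spermatocyte markers, led by Ldhc and Sycp3, 10 of 10 rose, and their summed level went from 178 and 181 FPKM in control to 1108 and 1122 FPKM in differentiation. Markers of undifferentiated spermatogonia, the labelled cells, were led by Sall4 and Zbtb16. Of 10 tested, 7 fell and 1 rose, and their sum went from 139 and 142 to 46.4 and 45.9 FPKM. Id4 went against the others, with group means of 2.95 FPKM in control and 12.4 FPKM in differentiation. Of 7 spermatid markers tested, led by Crem and Acr, 5 rose, from a sum of 7.98 and 6.43 to 27.3 and 27.1 FPKM. Crem and Acr reached 10.5 and 9.42 FPKM (group means in differentiation), while Tnp2, Spaca1 and Prm1 reached 1.53, 1.16 and 0.951 FPKM. Acr, Tnp2 and Prm1 were at 0.350, 0.322 and 0.268 FPKM in control (group means). These 3 passed the filter only through the differentiation libraries, so the filter partly set their direction. The authors' deposited adjusted p was 0.217 for Prm1 and 0.0865 for Spaca1, and under 0.05 for Crem, Acr and Tnp2. Acrv1 and Tssk1 were not called. Fibroblast and peritubular markers (led by Col1a1 and Acta2) fell in 8 of 10 and macrophage markers (led by Lyz2 and Cd68) in 5 of 5, from sums of 238 and 238 to 87.2 and 80.3 FPKM and of 51.7 and 49.2 to 13.8 and 13.2 FPKM. Leydig cell markers, led by Star and Cyp11a1, fell in 2 of 4 and rose in 1, with sums of 37.1 and 38.2 to 21.3 and 20.9 FPKM. Star was the 1 that rose, from 9.98 to 17.2 FPKM, while Cyp11a1 fell from 16.6 to 2.45 FPKM (group means). Sertoli cell markers, led by Cldn11 and Gata4, rose in 3 of 6 and fell in 2, with sums of 77.5 and 78.1 to 94.4 and 86.4 FPKM. Cldn11 rose from 37.8 to 51.3 FPKM, while Gata4 fell from 14.8 to 9.35 FPKM (group means). Adgre1 and Mrc1 (macrophage) and Lum (fibroblast) were at 0.212, 0.376 and 0.187 FPKM in differentiation (group means). They passed the filter only through the control libraries. The sums also include Ptprc (macrophage), Prm2 (spermatid), Lhcgr (Leydig cell) and Fshr (Sertoli cell), which were too low to be tested. No marker analysed was at 0 in all libraries, and Sycp1, Sycp3 and Hormad1 are also in the axis list. Insl3, Rhox5 and Tnp1 were not analysed here. Their part in the changes of the 7 genes was not tested, and in bulk RNA more cells of a type and more RNA per cell cannot be told apart.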

How the data were processed

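Per the labels' protocols, libraries were made from TRIzol-extracted total RNA after ribosomal RNA removal. Reads were handled with HISAT2 and GRCm38, per the submitters' processing notes. No source used here names the annotation, the counting tool or the use of strand. The authors deposited FPKM per feature, their log2 fold change, and a p-value with its adjusted value from a test not named.

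FPKM times the merged exonic length in GENCODE M21 (31536 of 31600 identifiers matched) gave whole fragments, within 0.05, for 96.2% of values under 300 fragments. The library scales were 19461700 and 20650200 (control) and 17772000 and 20363300 (differentiation) fragments. Sun2 did not come out whole, so no fragments are given for it.

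limma 3.58.1 (R 4.3.3) was fitted to log2(FPKM + 1) with group as the only term and an intensity trend, on features whose mean FPKM was 0.5 or more. It was two-sided, with Benjamini-Hochberg adjustment over all 23138, and had 2 residual and 2.14 prior degrees of freedom. The fit was also run on simulated data in which few features changed, unlike here, so that run does not measure its error in these data. Alternatives were the pseudocount, the filter, scaling, no trend, the replicate number as a block, each library left out in turn, and limma-voom on the recovered fragments. Members and lists were chosen with earlier results of these data known. Named were all 7 genes, up to 4 called genes of each list in each direction by smallest p, the 2 genes most like each member (1 of these is not reported here), and, after their values were seen, Terf1, Rad21l, Dynlrb1, Ccne1, Trmt61b and Mettl4-ps1. Python 3.11.15 with pandas 2.3.3 and matplotlib 3.10.9 did the rest.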

Additional observations from a re-analysis of the deposited data

How the results depend on the processing

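Over 12 alternatives, 82 of 84 refits of the 7 genes kept direction and call. Terb2 lost its call without differentiation replicate 1 (log2 fold change 0.60, range 0.55 to 0.76 over the fits without 1 library), and Sun2 passed after quantile normalization (-0.20), which made 1 of the 7 genes lower in place of 0. The counts of features called ran from 9438 to 10217 in the fits without 1 library, against 13094, where limma assumes that the lone library of a group varies like the other group. Quantile normalization and median centring shifted the median log2 fold change of all features by -0.10 and -0.07, and 43.2% and 45.5% of their calls were higher, against 52.3%, so that lower calls outnumbered higher ones. Under limma-voom 49.7% were higher. Without 1 library, 1 or 2 genes were called higher in the shelterin, SUN and KASH, and lamina lists, 0 were called lower in the SUN and KASH list, and 4 to 6 were called lower in the dynein list. With a mean of at least 2 FPKM, 0 SUN and KASH genes and 4 CDK2 list genes were higher. There Sun3, Sun5, Spdye4a, Spdye4c and Ccna1 fell under the filter and were not tested. Quantile normalization, median centring and limma-voom each called 2 SUN and KASH genes lower, and median centring, quantile normalization and the fit without a trend called 1 lamina gene higher. Terf1 and Rad21l, not called, turned to 0.051 and 0.088 without differentiation replicate 1, over ranges of -0.19 to 0.051 and -0.14 to 0.088 without 1 library.

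No source used here says whether libraries with the same replicate number were handled together. Their deviations from the group means were not correlated (-0.000408 across 23138 features). With 2 libraries per group this cannot exclude a shared batch or a pairing. With a replicate block 12298 features were called, 0 SUN and KASH genes were lower, 1 lamina gene was higher, 6 CDK2 list genes were higher in place of 7, and the calls of the 7 genes held.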
